A study of Rattus norvegicus with 4 samples.

Results

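The integrated stress response and the unfolded protein response were examined in CG4 cells, a rat oligodendroglial line, through 35 named genes, of which 34 were present in the deposited table of 14410 genes. Nupr1 was the member not listed. The genes were chosen by symbol as a pathway list, with earlier results of these data known, and fell into 3 sets. The ATF4 branch held 13 measured genes, the ER chaperone branch 17, and the stress sensors with Xbp1 4. Cells that overexpress Phf8 carried a retrovirus with the CAG promoter driving Phf8, an IRES and GFP (Phf8oe, 2 libraries), and control cells the same retrovirus with GFP but without Phf8 (ctrl, 2 libraries). Both groups were wild-type CG4 cells that had been sorted for GFP, expanded, and held in differentiation medium for 3 days before RNA was taken. They are pools of transduced cells of 1 progenitor line. The replicates are labelled as biological and were seeded separately after expansion, but the labels do not say whether each had its own transduction, so p-values measure only the spread between these cultures.

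The integrated stress response slows protein synthesis when any of several kinases phosphorylates the initiation factor eIF2, and the messenger RNA of the transcription factor Atf4 is then translated more efficiently. Atf4 raises genes for amino acid import and synthesis and for feedback on the response itself. The unfolded protein response starts from the sensors Atf6, Ern1 (IRE1) and Eif2ak3 (PERK) in the membrane of the endoplasmic reticulum (ER), of which PERK feeds into Atf4, while Atf6 and spliced Xbp1 raise ER chaperones and degradation factors. Myelin-forming cells pass large amounts of membrane protein through the ER, and defects of the eIF2 exchange factor eIF2B damage white matter in humans. Values here are totals per gene, so they hold nothing on eIF2 phosphorylation, Atf4 translation or Xbp1 splicing.

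The 4 libraries summed to between 39945215 and 41149255 normalized counts, which is a scaled total and not the depth. Depth was estimated from the steps between the values, at 43100000 and 28400000 reads in the Phf8oe libraries and 47800000 and 39300000 in the ctrl libraries. Phf8 itself had 5650 and 10796 normalized counts in Phf8oe, against 2026 and 2205 in ctrl (log2 fold change 1.89, SE 0.35, limma adjusted p = 0.0631). All 10 markers of the oligodendrocyte lineage were listed in every library, and their sum was 749887 and 687706 in Phf8oe, against 489707 and 484083 in ctrl. Mbp held the largest part of it, with 340486 and 308875 in Phf8oe, against 184442 and 173338 in ctrl. Of the 10 markers 4 rose and 6 did not pass, while 2.99% of all genes tested rose. In 8 of the 10 both Phf8oe libraries were higher than both ctrl libraries, which held for 28.9% of all genes. The sum of 5 listed astrocyte markers of 6 was 34051 and 41347 in Phf8oe, against 97528 and 103545 in ctrl. That sum followed Gfap, which fell (log2 fold change -2.46, limma adjusted p = 0.022). Aldh1l1 rose at low values, 32 and 44 in Phf8oe, against 9 and 10 in ctrl (log2 fold change 1.88, limma adjusted p = 0.0251). The other 3 did not pass, with Slc1a2 (-1.02) and Gja1 (-0.76) below 0 and Aldoc (0.14) above. The sum of 7 of 7 neuronal markers was 14462 and 14278 in Phf8oe, against 19869 and 17727 in ctrl, and none of the 7 passed. Of 6 microglial markers 3 were listed, at a sum of 197 to 307 in every library, and of 7 fibroblast and pericyte markers 2, at 232 and 300 in Phf8oe and 485 and 498 in ctrl, where Col1a1 fell (log2 fold change -1.65, limma adjusted p = 0.00361) and Postn rose (1.48, limma adjusted p = 0.038). The 4 Schwann cell markers summed to 2411 and 3566 in Phf8oe, against 2696 and 2228 in ctrl, and 1 of them, Egr2, fell (log2 fold change -2.16, limma adjusted p = 0.0368). Mitochondrial transcripts took 5.34% and 4.76% of the values in Phf8oe, against 3.68% and 3.62% in ctrl. Whether these differences in cell state or RNA makeup bear on the stress genes was not tested, and fewer cells of a type cannot be told apart from less RNA per cell.

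The comparison of Phf8oe with ctrl found little movement among the members listed for either response. ATF4 targets outside the members, some of which rose, are given below. Of the 34 measured members 1 rose, 1 fell and 32 did not pass the test (Benjamini-Hochberg adjusted p under 0.05 in limma over all genes). Creld2, a secretory protein known to be induced by ER stress, rose 1.3-fold, and Sel1l, the scaffold of the ER degradation complex, fell 1.39-fold. That is 5.88% of the members, against 7.64% of the 14368 genes tested (2.99% higher and 4.65% lower). Those were 430 genes higher and 668 lower, against 614 and 598 with upper quartile scaling. No member changed 2-fold, and the log2 fold changes of the members ran from -0.53 to 0.46, with a median size of 0.14, against 0.22 over all genes tested. The groups did not overlap in 16 members, 9 higher and 7 lower in Phf8oe, or 47.1% of them, against 57.6% of all genes (28.9% higher and 28.7% lower). At an unadjusted p under 0.05 there were 7 members, 3 higher and 4 lower, or 20.6%, against 26.3% of all genes. The members' calls were thus no more frequent than those of the table as a whole.

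**Figure D1:**
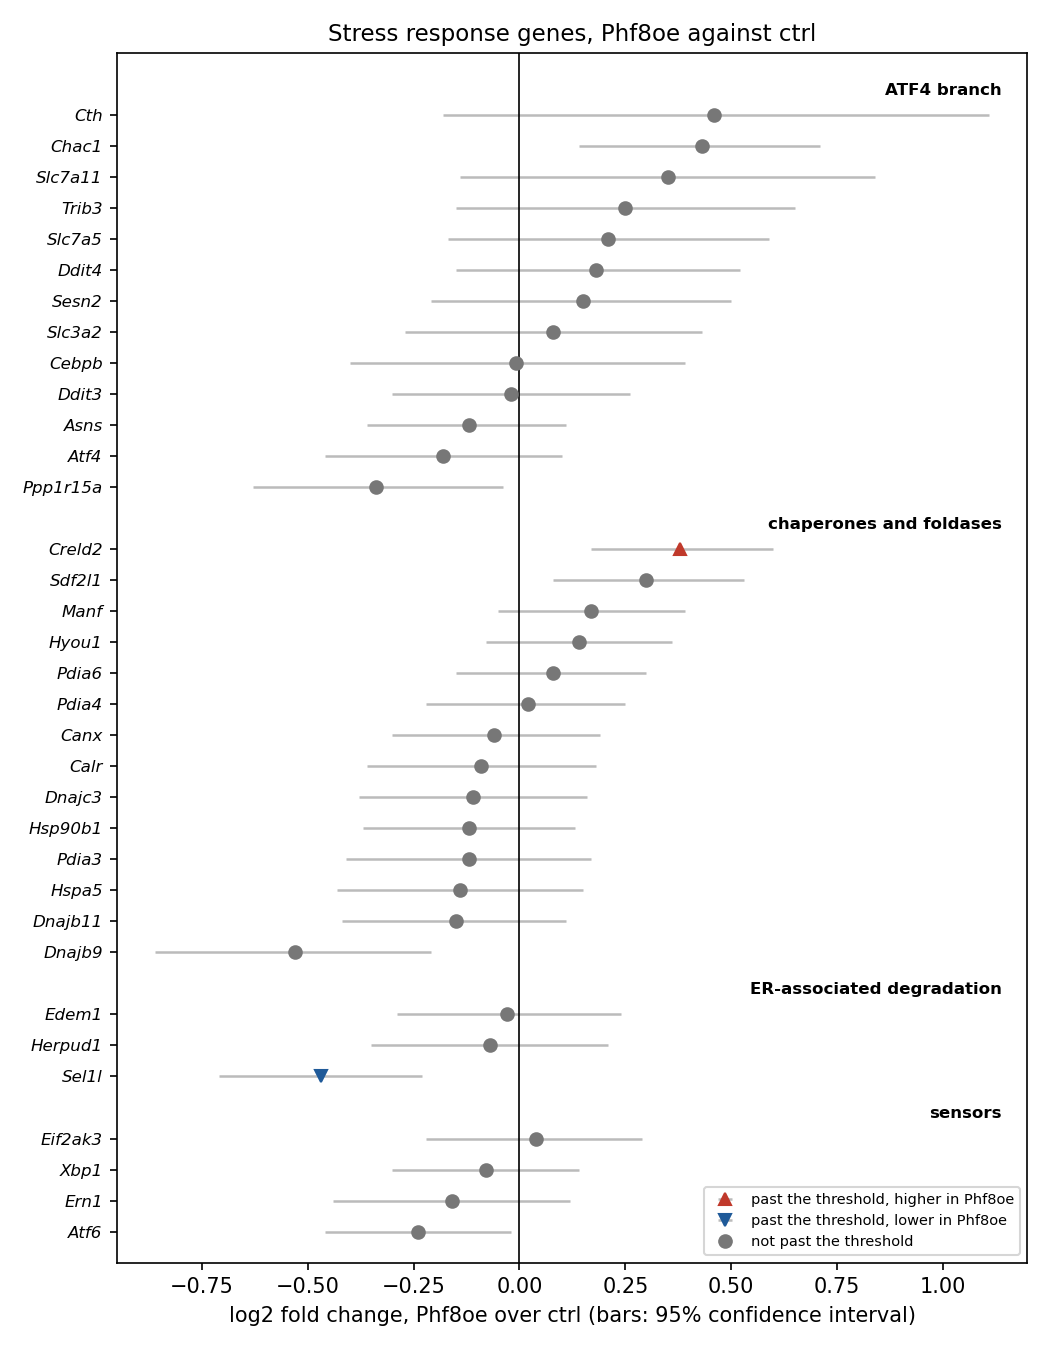
Log2 fold change of each of the 34 measured members (horizontal axis, Phf8oe over ctrl, 2 libraries per group) with its 95% confidence interval from limma, by set and in falling order within a set. The upward triangle marks Creld2 (0.38) and the downward triangle Sel1l (-0.47), which passed the threshold, and the other 32 genes are grey.

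In the ATF4 branch none of 13 genes passed the test in limma, none passed in limma-voom on estimated reads, and 2 had an unadjusted p under 0.05 (15.4%, against 26.3% of all genes). Atf4, the transcription factor of the branch, had 12436 and 14599 normalized counts in Phf8oe, against 16401 and 14187 in ctrl. The groups overlapped, since the higher Phf8oe library lay above the lower ctrl library. Its log2 fold change was -0.18 (SE 0.12, 95% confidence interval -0.46 to 0.10, limma adjusted p = 0.387, n = 2 per group). Ddit3, the transcription factor CHOP that is tied to cell death under lasting ER stress, had 938 and 1008 in Phf8oe, against 1055 and 924 in ctrl. Both Phf8oe libraries lay between the ctrl libraries, and the log2 fold change was -0.02 (95% confidence interval -0.30 to 0.26). These intervals leave out a 2-fold change of either gene in either direction, with the spread taken from these 4 libraries. Ddit3 overlaps Mars in RefSeq's GRCr8 annotation, and with the use of strand not given, reads of the overlap may not be separable. Mars had a log2 fold change of 0.14 (limma adjusted p = 0.435). Cebpb, a transcription factor that pairs with Atf4, had 283 and 251 in Phf8oe and 271 and 265 in ctrl, again with full overlap.

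Feedback genes and other outputs of the branch lay on both sides of 0. Ppp1r15a (GADD34), which directs a phosphatase to eIF2, had 820 and 923 normalized counts in Phf8oe, against 1186 and 1016 in ctrl. Both Phf8oe libraries were lower than both ctrl libraries, but the gene did not pass the test (log2 fold change -0.34, SE 0.13, limma adjusted p = 0.145). Chac1, an enzyme that breaks down glutathione, had 841 and 906 in Phf8oe, against 627 and 672 in ctrl. Its groups did not overlap either, and it lay higher in Phf8oe without passing (log2 fold change 0.43, SE 0.13, limma adjusted p = 0.0721). Trib3, a pseudokinase that restrains Atf4, had 355 and 375 in Phf8oe and 341 and 275 in ctrl (log2 fold change 0.25, SE 0.18). Chac1 and Ppp1r15a, commonly read as outputs of the same factor, thus stood on opposite sides of 0, neither past the threshold.

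None of the 5 members of amino acid supply passed the test, and their log2 fold changes ran from -0.12 to 0.46. Other genes of amino acid supply, outside the members, are named below. Asns, asparagine synthetase, had 4668 and 5345 in Phf8oe, against 5492 and 5394 in ctrl (log2 fold change -0.12, SE 0.10). Slc7a5 is the light chain of a transporter of large neutral amino acids, and it had 8899 and 7061 in Phf8oe, against 7823 and 5996 in ctrl. The replicates of Slc7a5 differed by 1.26-fold in Phf8oe and 1.3-fold in ctrl, more than the 1.16-fold between the group means on the log2 scale. Slc3a2, the heavy chain that Slc7a5 and Slc7a11 both need, had a log2 fold change of 0.08 (SE 0.15). Slc7a11, the light chain of the cystine importer, had few counts, 143 and 166 in Phf8oe and 119 and 122 in ctrl (log2 fold change 0.35, SE 0.22). Cth, which makes cysteine from cystathionine, had fewer, 73 and 57 in Phf8oe and 46 and 47 in ctrl, and had the widest interval of the members (log2 fold change 0.46, 95% confidence interval -0.18 to 1.11). Both low genes lay higher in each Phf8oe library than in each ctrl library, and neither passed. Their fold changes are on the log2(value + 1) scale, which understates those of low genes.

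Of the branch's brakes on the growth kinase complex mTORC1, Ddit4 (REDD1) had 22887 and 22041 normalized counts in Phf8oe, against 16994 and 23032 in ctrl. The ctrl libraries differed by 1.36-fold from each other and enclosed both Phf8oe values. Sesn2, a sensor of leucine, had 1958 and 1722 in Phf8oe and 1923 and 1430 in ctrl (log2 fold change 0.15, SE 0.15). Neither passed the test.

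**Figure D2:**
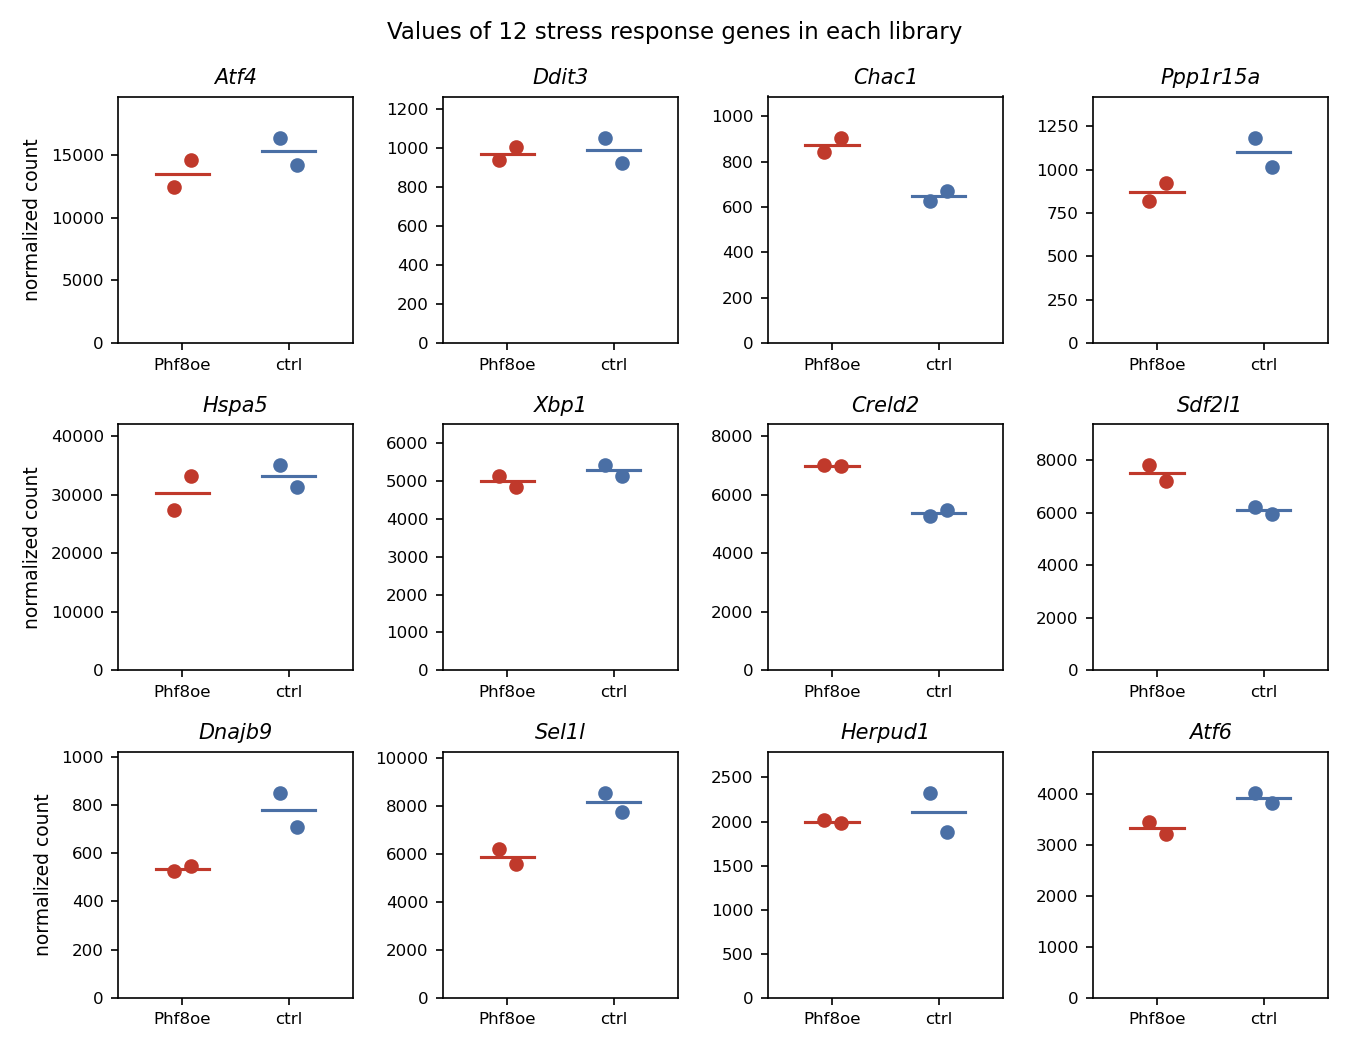
Normalized counts of 12 members in each library (vertical axes start at 0), Phf8oe on the left and ctrl on the right of each panel, with a line at each group's mean. The groups overlap for Atf4, Ddit3, Hspa5 and Herpud1, and they are apart for Chac1, Ppp1r15a, Xbp1, Creld2, Sdf2l1, Dnajb9, Sel1l and Atf6.

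The ER chaperone branch is known for a promoter sequence, the ER stress element, to which Atf6 and the factor NF-Y bind. RefSeq's promoter table (GRCr8, 250 bases before and 50 after each start) held 30 of the 35 members, and both strands were searched. CCAAT and CCACG with 9 bases between them were found in 6 of 14 ER chaperone branch genes (Hspa5, Hsp90b1, Calr, Canx, Dnajc3 and Creld2), in Xbp1 and in none of 14 ATF4 branch genes. Among all 33469 promoter windows 22 held it, or 0.0657%. The shorter string CCACG, which every such element contains, occurred in 31.6% of all windows. The matches are shown because Creld2, which is described below, shares them with Hspa5 and other well-known chaperones, with the motif's letters in capitals, on the strand of the gene, with bases around it. CGTGG and ATTGG are the same motif read from the other strand.
Creld2: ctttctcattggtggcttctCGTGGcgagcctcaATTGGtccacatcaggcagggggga
Hspa5: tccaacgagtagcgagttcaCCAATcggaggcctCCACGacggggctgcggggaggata
Xbp1: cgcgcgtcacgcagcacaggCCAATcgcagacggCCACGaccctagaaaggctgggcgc
Dnajc3: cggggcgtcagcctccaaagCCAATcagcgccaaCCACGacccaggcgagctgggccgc
Canx: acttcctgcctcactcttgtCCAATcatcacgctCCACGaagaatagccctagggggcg
Calr: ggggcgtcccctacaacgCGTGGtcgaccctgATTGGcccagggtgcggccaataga
Hsp90b1, far match: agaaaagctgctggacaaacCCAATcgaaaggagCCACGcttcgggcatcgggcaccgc
Hsp90b1, near match: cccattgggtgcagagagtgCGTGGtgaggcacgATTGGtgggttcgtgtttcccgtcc

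On GRCr8 these windows lie at chr7:121789219-121789277 (plus strand) for Creld2, chr3:38452953-38453011 (plus) for Hspa5 and chr14:84604538-84604596 (plus) for Xbp1. They lie at chr15:102432514-102432572 (plus) for Dnajc3, chr10:35158049-35158107 (minus) for Canx and chr19:40213117-40213173 (plus) for Calr. Those of Hsp90b1 are chr7:23012431-23012489 and chr7:23012327-23012385 (minus). In Creld2 the match spans 145 to 127 bases before the start, and in Hspa5 43 to 25. The 7 genes with the element had log2 fold changes from -0.14 to 0.38, 1 above and 6 below 0, and of them Creld2 alone passed the test. A match is a description of letters and not a bound site.

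A second form of the element, ATTGG and CCACG with 1 base between them, was found in Hyou1, Dnajb11 and Herpud1 among the members and in 0.0508% of all windows. Hyou1 also held TGACGTGG, the unfolded protein response element (0.595% of all windows), which overlaps one of its second-form matches. For the ATF4 branch the composite element of C/EBP and ATF factors was searched as TGATGNAAT or TTGCATCA, spellings that overlap each other on opposite strands. It was found in Chac1, Nupr1 and Herpud1, and in 1.7% of all windows. The windows of Herpud1 (second form, chr19:10614801-10614851, minus) and Chac1 (composite, chr3:126795944-126795991, plus) are shown as the members that hold each and are described by their values.
Herpud1: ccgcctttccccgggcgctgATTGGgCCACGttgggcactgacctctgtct
Chac1: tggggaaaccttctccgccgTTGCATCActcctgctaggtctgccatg

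Among the chaperones and foldases 1 of 14 rose and none fell, and 13 did not pass (7.14% called, against 7.64% of all genes). Creld2 had 7011 and 6980 normalized counts in Phf8oe, against 5258 and 5467 in ctrl. Both groups were tight, with replicates differing by 1.04-fold or less. The log2 fold change was 0.38 (SE 0.09, 95% confidence interval 0.17 to 0.60, limma adjusted p = 0.0431). Its call was lost without ctrl replicate 1 (log2 fold change 0.36, adjusted p = 0.367) and likewise without its fellow ctrl replicate 2 (0.41, adjusted p = 0.172), where the spread comes from the Phf8oe libraries and 1 lone ctrl library is taken to vary like them. It was also lost without robust moderation (adjusted p = 0.0545), with no variance trend (adjusted p = 0.169) and with the replicate number as a block (limma adjusted p = 0.109). Creld2 overlaps Alg12 in the annotation, and Alg12 had 1867 and 2054 in Phf8oe, against 2253 and 1707 in ctrl (log2 fold change -0.0021).

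Dnajb9 (ERdj4), a co-chaperone that delivers unfolded protein to Hspa5 and holds back Ern1, lay furthest from 0 of all members. It had 524 and 548 normalized counts in Phf8oe, against 851 and 708 in ctrl. Both Phf8oe libraries were below both ctrl libraries, but the gene narrowly missed the threshold (log2 fold change -0.53, SE 0.14, limma adjusted p = 0.0555). It passed with scaling to library totals (adjusted p = 0.0452) and without Phf8oe replicate 2 (adjusted p = 0.0334). Sdf2l1, a partner of Dnajb chaperones in the ER, had 7818 and 7213 in Phf8oe, against 6218 and 5960 in ctrl (log2 fold change 0.30, SE 0.10, limma adjusted p = 0.0933). Its groups were apart, and it passed when Phf8oe replicate 2 was left out (log2 fold change 0.36, adjusted p = 0.0474). Manf, a secreted ER stress protein, had 7879 and 8372 in Phf8oe and 7380 and 7078 in ctrl (log2 fold change 0.17, SE 0.10). Sdf2l1 and Manf were singled out after their values were seen.

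The major chaperones stood near ctrl. Hspa5 (BiP), the ER member of the Hsp70 family and the usual marker of the unfolded protein response, had 27322 and 33289 normalized counts in Phf8oe, against 35078 and 31380 in ctrl. The groups overlapped, and the Phf8oe replicates differed by 1.22-fold (log2 fold change -0.14, SE 0.13, 95% confidence interval -0.43 to 0.15, limma adjusted p = 0.531). Calr, calreticulin, which holds newly made glycoproteins, had 48170 and 53376 in Phf8oe and 57877 and 50338 in ctrl. Its membrane-bound relative Canx, calnexin, had 52478 and 48193 in Phf8oe and 53989 and 50639 in ctrl. Both genes overlapped between the groups, with log2 fold changes of -0.09 (SE 0.12) for Calr and -0.06 (SE 0.11) for Canx. Hsp90b1 (GRP94), the ER form of Hsp90, had a log2 fold change of -0.12 (SE 0.11), and Hyou1, a nucleotide exchange factor for Hspa5, one of 0.14 (SE 0.10).

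The protein disulfide isomerases had log2 fold changes of -0.12 (SE 0.13) for Pdia3, 0.02 (SE 0.10) for Pdia4 and 0.08 (SE 0.10) for Pdia6. Pdia3 overlaps Catsper2, which had 130 and 163 in Phf8oe and 124 and 114 in ctrl. Pdia3 itself had 23268 and 29004 in Phf8oe and 29354 and 27005 in ctrl, and the groups overlapped. The co-chaperones Dnajb11 and Dnajc3, which stimulate Hspa5, had values of -0.15 (SE 0.12) and -0.11 (SE 0.12). Hsp90b1, Pdia4 and Slc3a2 have annotated pseudogenes, and how the authors counted reads that fit both is not known here.

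Of the 3 genes of ER-associated degradation, 1 fell and 2 did not pass, too few genes for a share to be set against the 7.64% of all genes called. Sel1l had 6187 and 5562 normalized counts in Phf8oe, against 8542 and 7730 in ctrl. Both Phf8oe libraries were lower than both ctrl libraries, and replicates differed by 1.11-fold in each group. The log2 fold change was -0.47 (SE 0.11, 95% confidence interval -0.71 to -0.23, limma adjusted p = 0.0328). The call was lost without ctrl replicate 1 (log2 fold change -0.40) and when ctrl replicate 2 was left out (-0.54). It was also lost with no variance trend (limma adjusted p = 0.168) and with the replicate number as a block (limma adjusted p = 0.0713). Herpud1, which brings the degradation complex together and is among the fast-responding genes of the response, had 2015 and 1985 in Phf8oe and 2328 and 1882 in ctrl (log2 fold change -0.07, SE 0.12). Edem1, which passes misfolded glycoproteins on for degradation, had 2352 and 1970 in Phf8oe and 2247 and 2145 in ctrl (log2 fold change -0.03, SE 0.12). Both overlapped between the groups.

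The sensors did not pass the test in limma or in limma-voom. Of the 4, 1 had an unadjusted p under 0.05, as did 26.3% of all genes. The groups did not overlap in 3 of them, all lower in Phf8oe, and in 57.6% of all genes (28.7% lower). With 4 genes, no difference from these shares can be read. Atf6, which is cut to release a transcription factor, had 3446 and 3207 normalized counts in Phf8oe, against 4029 and 3826 in ctrl (log2 fold change -0.24, SE 0.10, limma adjusted p = 0.166). Its groups did not overlap, and every Phf8oe value was lower. Ern1, the kinase and nuclease that splices Xbp1, had 687 and 719 in Phf8oe and 777 and 797 in ctrl (log2 fold change -0.16, SE 0.12). Xbp1 had 5129 and 4840 in Phf8oe and 5413 and 5136 in ctrl (log2 fold change -0.08, SE 0.10), which left a narrow gap between the groups. Eif2ak3 (PERK) had 1819 and 1715 in Phf8oe and 1831 and 1614 in ctrl, with full overlap (log2 fold change 0.04, SE 0.11).

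The branches were then set side by side. The median log2 fold change was 0.15 in the ATF4 branch, with 8 genes above and 5 below 0, and -0.07 in the ER chaperone branch, with 6 above and 11 below. Over all genes tested it was 0.0031, with 7240 above and 7128 below. The mean log2(value + 1) of the ATF4 branch was 10.50 in both Phf8oe libraries, against 10.45 and 10.33 in the ctrl libraries, and that of the ER chaperone branch was 13.03 and 13.08 in Phf8oe, against 13.15 and 13.05 in ctrl. The ATF4 mean minus the ER chaperone mean, which does not depend on the scaling of a library beyond the added 1, was -2.52 and -2.58 in Phf8oe, against -2.70 and -2.72 in ctrl. The group means of that difference were -2.55 in Phf8oe and -2.71 in ctrl, 0.16 apart on the log2 scale, and only this change between groups is readable, since levels of different genes also follow their length. It is a description of 2 libraries per group with no test, over genes of which none in the ATF4 branch passed. The ATF4 median was 0.04 without Phf8oe replicate 1 and 0.21 without Phf8oe replicate 2. It was 0.30 without ctrl replicate 1 and -0.02 without ctrl replicate 2. The ER chaperone median ran from -0.10 to -0.0017 with 1 library left out. The 17 ER chaperone branch genes took 0.642% and 0.703% of the values in Phf8oe, against 0.726% and 0.690% in ctrl, which overlap. The 13 ATF4 branch genes took 0.151% and 0.153% in Phf8oe, against 0.150% and 0.149% in ctrl, nearly the same. Such a share follows the genes with the highest values, while the means above weigh low and high genes alike.

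**Figure D3:**
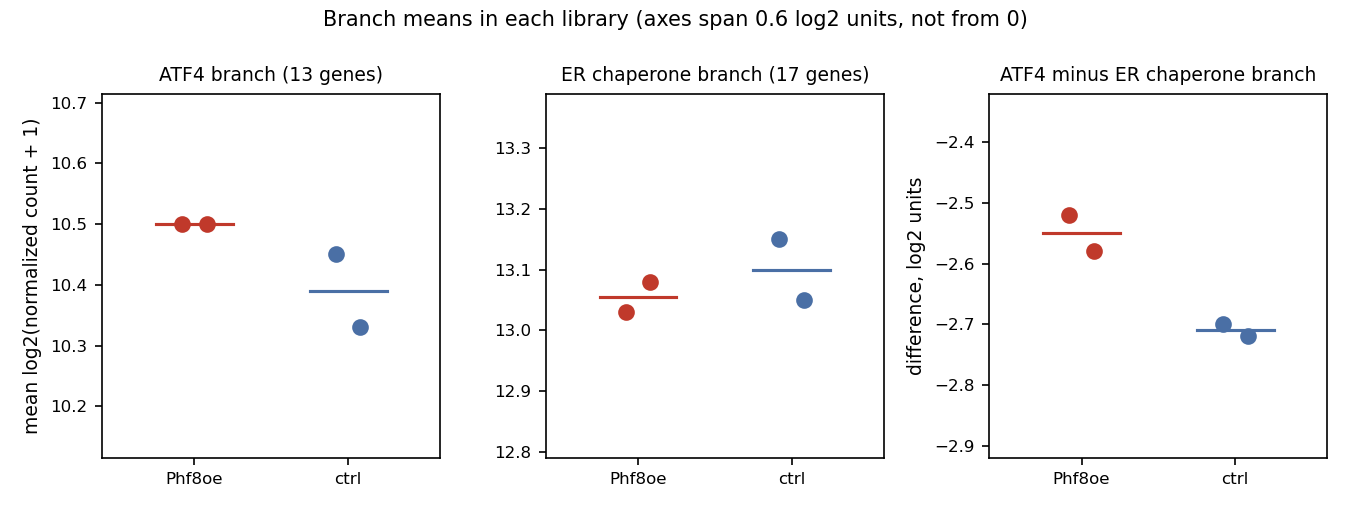
Mean log2(normalized count + 1) of the 13 ATF4 branch genes and the 17 ER chaperone branch genes in each library, and the difference between these means, with Phf8oe on the left and ctrl on the right and lines at group means. The vertical axes each span 0.6 log2 units and do not start at 0. The ER chaperone means overlap between groups, and the difference is -2.52 and -2.58 in Phf8oe, against -2.70 and -2.72 in ctrl.

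Other genes of these pathways were read from further lists, the first of which holds genes already known to move in these data. Of 27 measured targets of ATF4 that are not members, 7 rose, 1 fell and 19 did not pass. That is 29.6% called, against 7.64% of all genes, and the median log2 fold change was 0.27. Those that rose were Gadd45a, Psat1, Mthfd2, Eif4ebp1 and Phgdh, and the amino acid transporters Slc1a4 and Slc1a5. Since part of this list was known to move, its counts and shares are a description and were not set against those of other lists. Gadd45a, a growth arrest gene also raised by p53, had 2643 and 2595 normalized counts in Phf8oe, against 1459 and 1676 in ctrl (log2 fold change 0.74, SE 0.11, limma adjusted p = 0.00795). Psat1, of serine synthesis, had 13565 and 14050 in Phf8oe, against 9124 and 9206 in ctrl (log2 fold change 0.59, limma adjusted p = 0.0111). Mthfd2, a mitochondrial folate enzyme, had 2494 and 2969 in Phf8oe, against 1783 and 1743 in ctrl (log2 fold change 0.63, limma adjusted p = 0.0166). Vldlr, a lipoprotein receptor, fell, with 1972 and 1689 in Phf8oe, against 2914 and 2887 in ctrl (log2 fold change -0.67, limma adjusted p = 0.012). These 4 calls were lost when ctrl replicate 1 or ctrl replicate 2 was left out, as were those of Eif4ebp1, Phgdh, Slc1a4 and Slc1a5. With the replicate number as a block, Gadd45a, Psat1 and Vldlr kept their calls. Those of Mthfd2, Eif4ebp1, Phgdh, Slc1a4 and Slc1a5 were then lost (limma adjusted p = 0.0562, 0.0728, 0.0902, 0.066 and 0.0762). Slc1a4 also lost its call without robust moderation (limma adjusted p = 0.052). Atf3, an early stress gene of the list, had 275 and 716 in Phf8oe, against 1807 and 1566 in ctrl, and did not pass (log2 fold change -1.92, SE 0.54, limma adjusted p = 0.144), with a 2.6-fold difference between the Phf8oe libraries. Atf3 was picked after its values were seen, and some other genes of the list that did not pass lay higher. Gdf15 had 137 and 78 in Phf8oe, against 45 and 49 in ctrl (log2 fold change 1.12, limma adjusted p = 0.0635). Pycr1 had 3391 and 2646 in Phf8oe, against 1190 and 1864 in ctrl (log2 fold change 1.01, limma adjusted p = 0.0723). At an unadjusted p under 0.05 the list had 13 genes higher and 3 lower (59.3%, against 26.3% of all genes).

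None of 12 aminoacyl-tRNA synthetases passed in limma or limma-voom, with 1 at an unadjusted p under 0.05 (8.33%, against 26.3% of all genes) and a median log2 fold change of 0.04. The same held for the 13 genes of the eIF2 machinery, with 4 at an unadjusted p under 0.05 (30.8%, against 26.3% of all genes) and a median of 0.02. Among them Eif2ak2 (PKR), the eIF2 kinase that senses double-stranded RNA, had 1587 and 1832 in Phf8oe, against 2332 and 2187 in ctrl (log2 fold change -0.41, limma adjusted p = 0.0621), and was picked after its values were seen. Of 44 further ER folding and degradation genes 1 rose, 1 fell and 42 did not pass (4.55% called, against 7.64% of all genes, median log2 fold change -0.0047). Sil1, an exchange factor of Hspa5, had 1084 and 1068 in Phf8oe, against 588 and 759 in ctrl (log2 fold change 0.69, SE 0.15, limma adjusted p = 0.0274). Edem3, a mannosidase of the same family as Edem1, had 2101 and 2011 in Phf8oe, against 2932 and 2610 in ctrl (log2 fold change -0.43, SE 0.11, limma adjusted p = 0.0441). Without ctrl replicate 1 the call of Sil1 was lost, at 0.50 (adjusted p = 0.286) and that of Edem3 at -0.34 (adjusted p = 0.407). Without ctrl replicate 2 they were lost at 0.87 (adjusted p = 0.0593) and -0.51 (adjusted p = 0.13). The call of Edem3 was also lost with upper quartile scaling (adjusted p = 0.0562) and without robust moderation (adjusted p = 0.0626).

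In the neighbouring stress responses, none of 15 measured cytosolic heat shock genes passed in limma or limma-voom. Of them 1 had an unadjusted p under 0.05 (6.67%, against 26.3% of all genes), and the median was -0.10. Of 11 genes of the mitochondrial unfolded protein response 1 rose and 10 did not pass (9.09% called, against 7.64% of all genes), with 9 above 0 and a median log2 fold change of 0.25. At an unadjusted p under 0.05 there were 5 of these genes, 4 higher and 1 lower (45.5%, against 26.3% of all genes). The groups did not overlap in 10, of which 9 were higher and 1 lower (90.9%, against 57.6% of all genes). The gene that rose was Htra2, a mitochondrial protease, with 3558 and 3768 in Phf8oe, against 2714 and 2667 in ctrl (log2 fold change 0.44, limma adjusted p = 0.0304), a call lost without ctrl replicate 1 (adjusted p = 0.28) or replicate 2 (adjusted p = 0.166). The shares of mitochondrial transcripts given above moved the same way, and their part in this was not tested. Of 13 oxidative stress genes of the NRF2 response 1 fell and 12 did not pass (7.69% called, against 7.64% of all genes), with a median of -0.0046. Hmox1, heme oxygenase, had 580 and 684 in Phf8oe, against 1386 and 1166 in ctrl (log2 fold change -1.01, SE 0.14, limma adjusted p = 0.00641), a call lost without ctrl replicate 1 (log2 fold change -0.89, adjusted p = 0.159).

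**Figure D4:**
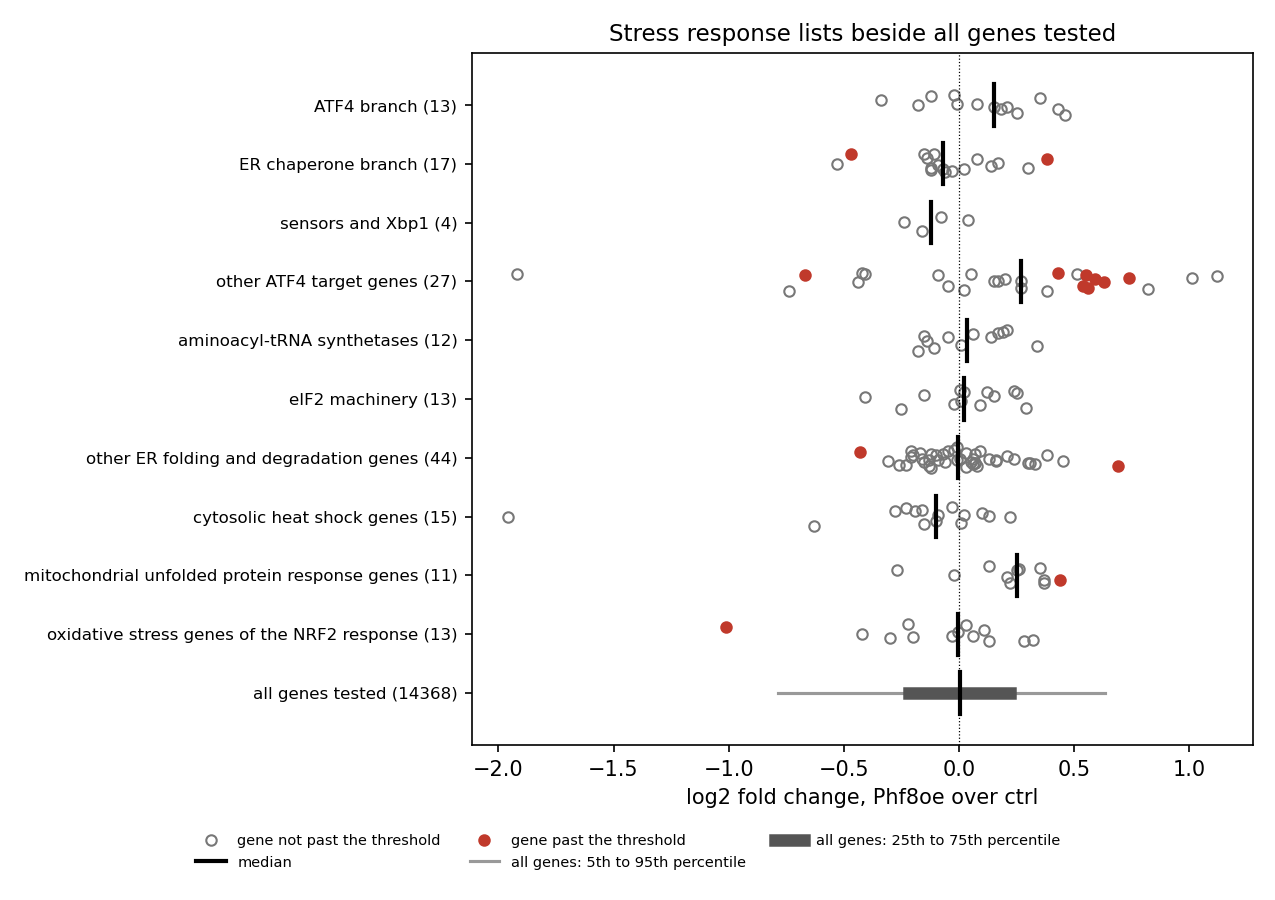
Log2 fold change (horizontal axis, Phf8oe over ctrl) of every measured gene in the member sets, the further pathway lists and the neighbouring stress responses, with the number of genes in brackets. Open circles did not pass the threshold, filled circles did, and black bars are medians. The bottom row gives the 5th to 95th percentile of all genes tested (-0.79 to 0.63) and their 25th to 75th (-0.22 to 0.22). The medians of the member sets are 0.15 for the ATF4 branch and -0.12 for the sensors.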

How the data were processed

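RNA-seq reads were handled with bcl2fastq 2.20, Trimmomatic 0.36, STAR 2.5.2b and DESeq2 against the rat builds rn6 and Rnor_6.0, per the submitters' processing notes. The deposited signal, named raw counts in the labels, behaved as a count per gene scaled to its library and rounded: from repeated and missing whole numbers, 1 read was estimated to be worth 0.9548 and 1.4159 in Phf8oe and 0.8445 and 1.0176 in ctrl. The 85 and 5 numbers that the steps above 1 skip were absent from Phf8oe replicate 2 and ctrl replicate 2. The counter, annotation release, use of strand and the rule for listing genes are, in the sources used here, not given. All 4 sample files matched the series table.

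Values were tested with limma 3.58.1 (R 4.3.3) on log2(value + 1) for the 14368 genes with at least 10 in at least 2 libraries, with trended, robust moderation, the group as only term, two-sided p-values and Benjamini-Hochberg adjustment over all genes. Residual degrees of freedom were 2, and moderation added 6.99 (median over genes). A count model planned in case of unscaled counts was not used. The procedure was tested on simulated data. Alternatives changed scaling, filter, pseudocount and moderation, used limma-voom, blocked on replicate number, or left out a library.

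Members and lists were chosen with earlier results of these data known. Given by library are members past the threshold, the 2 of smallest p and 2 of highest mean per set, Atf4, Ddit3, Hspa5 and Xbp1, and others where their spread matters; of other lists, up to 4 genes past the threshold. Tables and figures used Python 3.11.15, pandas 2.3.3, numpy 2.4.6 and matplotlib 3.10.9.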

Additional observations from a re-analysis of the deposited data

How the results depend on the processing

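Under 16 alternatives, the ER chaperone branch median of -0.07 ran from -0.10 to -0.0017, within its spread between replicates (0.072). That spread is as large as the median itself, so a distance from 0 is not shown. The ATF4 branch median ran from -0.02 to 0.30 with 1 library left out and moved less than its own spread (0.119) otherwise. With 1 library left out at a time, genes higher in Phf8oe ranged from 1 to 905, genes lower from 13 to 1198, and members from 0 to 2 in each direction. The numbers of genes higher and lower were 256 and 550 without robust moderation, and 0 and 0 with no variance trend. No member was then higher in either, and 1 without robust moderation and 0 with no variance trend were lower. With scaling to library totals 2 members fell, Dnajb9 and Sel1l. The upper quartile split was 614 higher and 598 lower. The labels do not say whether same-numbered libraries share a source. Their deviations had r = -0.126 across genes, which cannot settle it with 2 libraries per group. With the replicate number as a block, 65 genes were higher and 308 lower and 0 members passed in either direction (adjusted p = 0.109 for Creld2 and 0.0713 for Sel1l). The crossed pairing, added after the data were examined, gave 1056 and 1298 genes and 2 and 2 members. Genes near 0 changed sign without passing. With upper quartile scaling Ddit3 was at 0.02, Cebpb 0.03 and Edem1 0.01. Cebpb was at 0.0014 in limma-voom and Pdia4 at -0.0037 with total scaling. With 1 library left out the log2 fold change ran from -0.12 to 0.07 for Ddit3, -0.07 to 0.36 for Sesn2, -0.14 to 0.30 for Slc3a2, -0.09 to 0.08 for Cebpb, -0.04 to 0.40 for Ddit4, -0.28 to 0.0048 for Hspa5, -0.19 to 0.01 for Calr, -0.12 to 0.0053 for Canx, -0.28 to 0.04 for Pdia3, -0.07 to 0.10 for Pdia4, -0.22 to 0.09 for Herpud1, -0.16 to 0.10 for Edem1 and -0.05 to 0.13 for Eif2ak3. The cause of these changes was not tested. With 2 libraries per group, standard errors of the members lay between 0.09 and 0.29, which limits the sizes that could be called.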
